A study of Saccharomyces cerevisiae with 12 samples.

Results

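The 37 genes described here encode the enzymes of glycolysis, alcoholic fermentation and the pentose phosphate pathway of budding yeast. They were chosen by gene name and are 37 of the 7126 features in the table, and all 37 passed the filter on low values. RNA was sequenced from the wild-type strain BY4730 and from a strain in which *RRD1* is knocked out, each without drug or with 100 nM rapamycin for 50 min, which gives 4 groups of 3 libraries. All cultures were in log phase at 30 °C in YPD, a rich glucose medium, and both strains came from a commercial collection. *RRD1* encodes an activator of PP2A-type phosphatases, and rapamycin inhibits the TORC1 kinase complex, which couples growth to nutrients. Each strain is a single line, so the effect of the knockout cannot be told apart from any other difference between the lines. Within a strain, libraries 1, 3 and 5 were untreated and libraries 2, 4 and 6 received rapamycin. The repeats were made on different days, but which libraries share a day is not given in the sources used here. The *p*-values measure the spread between these cultures.

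Glycolysis splits glucose into pyruvate, and yeast growing on glucose converts most of that pyruvate to ethanol through pyruvate decarboxylase and alcohol dehydrogenase. The pentose phosphate pathway branches off at glucose-6-phosphate, where its oxidative steps yield NADPH and its later steps interconvert sugars and supply ribose-5-phosphate for nucleotides. Many of these reactions are carried by several isozymes, of which 1 is usually the main form in glucose-grown cells while the others are associated with poor carbon sources or with stress. The 37 genes were therefore divided into 11 principal isozymes, their 17 partner isozymes and 9 genes whose product has no second isozyme of the same role. By pathway there were 18 genes of glycolysis, 8 of fermentation and 11 of the pentose phosphate pathway.

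The label check found *RRD1* at 47.7, 47.5 and 72.3 FPKM in the untreated wild type and at 81.9, 67.2 and 85.3 with rapamycin. In the knockout it was at 0, 0.103 and 0.203 without rapamycin and at 0 in all 3 libraries with rapamycin, so the groups did not overlap. FPKM count fragments relative to transcript length and to the size of the library. Both strains listed *URA3*, *LEU2* and *MET17* at 0 in all libraries and expressed the a-cell genes *MFA1* and *STE2*, and the depth implied by the values was 8440000 to 11760000 mapped reads per library. Untreated library 1 and rapamycin library 2 of the knockout stood apart from the other knockout libraries for some genes. *MFA1*, the a-factor pheromone gene, was at 198870 FPKM in knockout library 1 against 67170 and 88463 in libraries 3 and 5, and at 320728 in library 2 against 131465 and 125098 in libraries 4 and 6. Among the 37 genes these included *HXK1* in both libraries and *TDH1* in library 2, whose calls are given with and without these libraries. *GPM2* was also highest of its group in library 1, and *PDC1* lowest of its group in library 2. Other knockout libraries deviated as well. Libraries 1, 2, 3 and 4 each had 2 of the 37 genes at least 1 log2 unit from the rest of their group, and libraries 5 and 6 had 1.

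Differences were tested with limma on log2(FPKM + 1) over the 6497 features whose mean was 1 FPKM or more, and genes with an adjusted *p*-value (Benjamini-Hochberg) under 0.01 were called. Log2 fold changes are on that scale, where a change of 1 is a doubling, and understate the changes of genes with low values. In the wild type, rapamycin raised 10 and lowered 11 of the 37 genes, in the setting of 52.2% of all features called (35.9% higher and 16.3% lower). In the knockout, 12 rose and 8 fell, against 46.7% of all features (36.4% higher and 10.3% lower). The number of calls was close to the background in both strains. Without libraries 1 and 2 of the knockout, 13 rose and 3 fell there, and 2424 features of the whole table were called, against 3032 with all libraries. By role, 8 of the 17 partner isozymes rose and 3 fell in the wild type (median log2 fold change 0.99), and 1 of 11 principal isozymes rose and 5 fell (median -0.61). In the knockout 10 partners rose and 3 fell (median 1.41), and 1 principal isozyme rose and 2 fell (median -0.41). The 9 genes without an isozyme had 1 rise and 3 falls in each strain, with medians of -0.42 and -0.31. The medians over all features were 0.29 in the wild type and 0.34 in the knockout. These gene groups were chosen with earlier results of these data known, so the counts are a description.

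**Figure D1:**
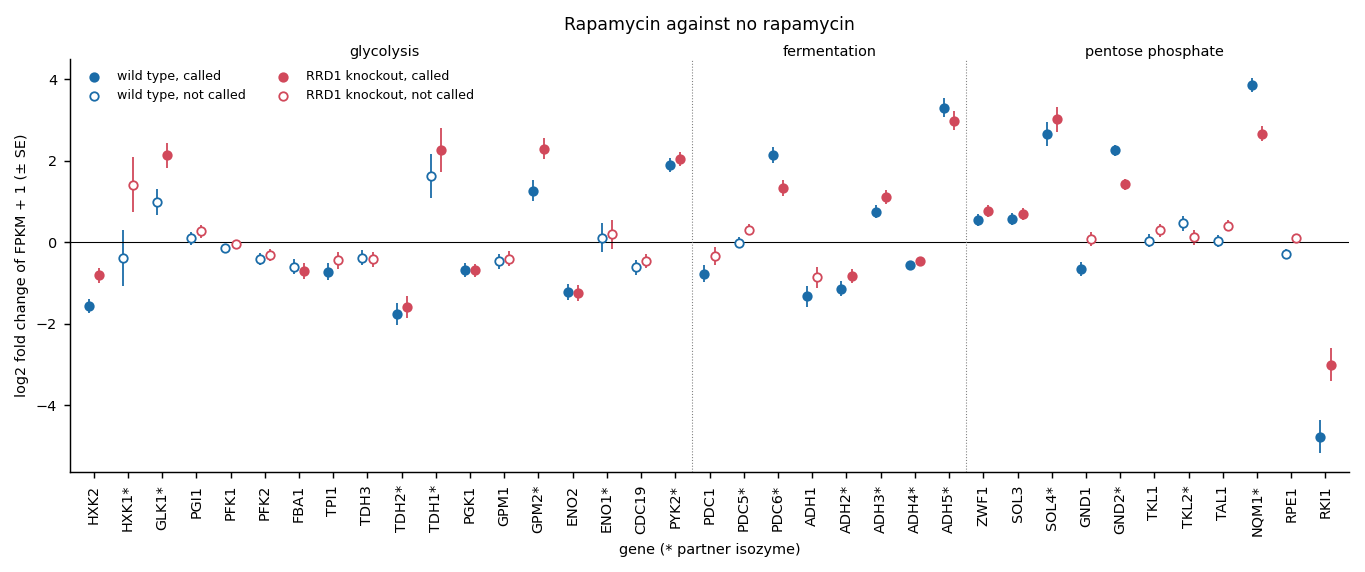
Log2 fold change of FPKM + 1 (y axis, ± SE from limma, n = 3 per group) with rapamycin for each of the 37 genes (x axis, * partner isozyme), for the wild type and the knockout, with filled symbols for genes called. The partner isozymes *ADH5*, *SOL4* and *NQM1* stand among the largest rises in both strains and *RKI1* is the largest fall, at -4.78 in the wild type.

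How the libraries are scaled changes the balance of rises and falls. In the wild type the split was 10 higher and 11 lower with FPKM as deposited, 7 and 18 after median-ratio scaling, 10 and 7 with the same sum per library, and 8 and 7 after quantile normalization. In the knockout the corresponding splits were 12 and 8, 10 and 15, 14 and 5, and 9 and 5. Over all features the calls in either direction were 3390, 3193, 3452 and 3338 in the wild type, in the same order. Those in the knockout were 3032, 2610, 3645 and 2721. Median-ratio scaling brought the medians over all features close to 0. With it, *CDC19*, *TDH3*, *PFK1*, *PFK2* and *GPM1* were newly called lower in both strains. *FBA1* and *RPE1* were newly called lower in the wild type, and *TPI1* and *ADH1* in the knockout. The ratio of 2 isozymes within a library does not depend on any linear scaling. The log2 ratio of a partner to its principal isozyme was higher with rapamycin, without overlap between the groups, for 14 of 17 pairs in the wild type and 13 of 17 in the knockout, while 1 pair, *TDH2* to *TDH3*, was lower in each strain. Across all features, the FPKM of single genes did not overlap between these groups for 68.2% and 67.3%, in either direction. No such share was computed for ratios of 2 genes. The pairs of one reaction share the principal gene. With 3 against 3 libraries an exact permutation test of a single ratio or share cannot go below *p* = 0.10.

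**Figure D2:**
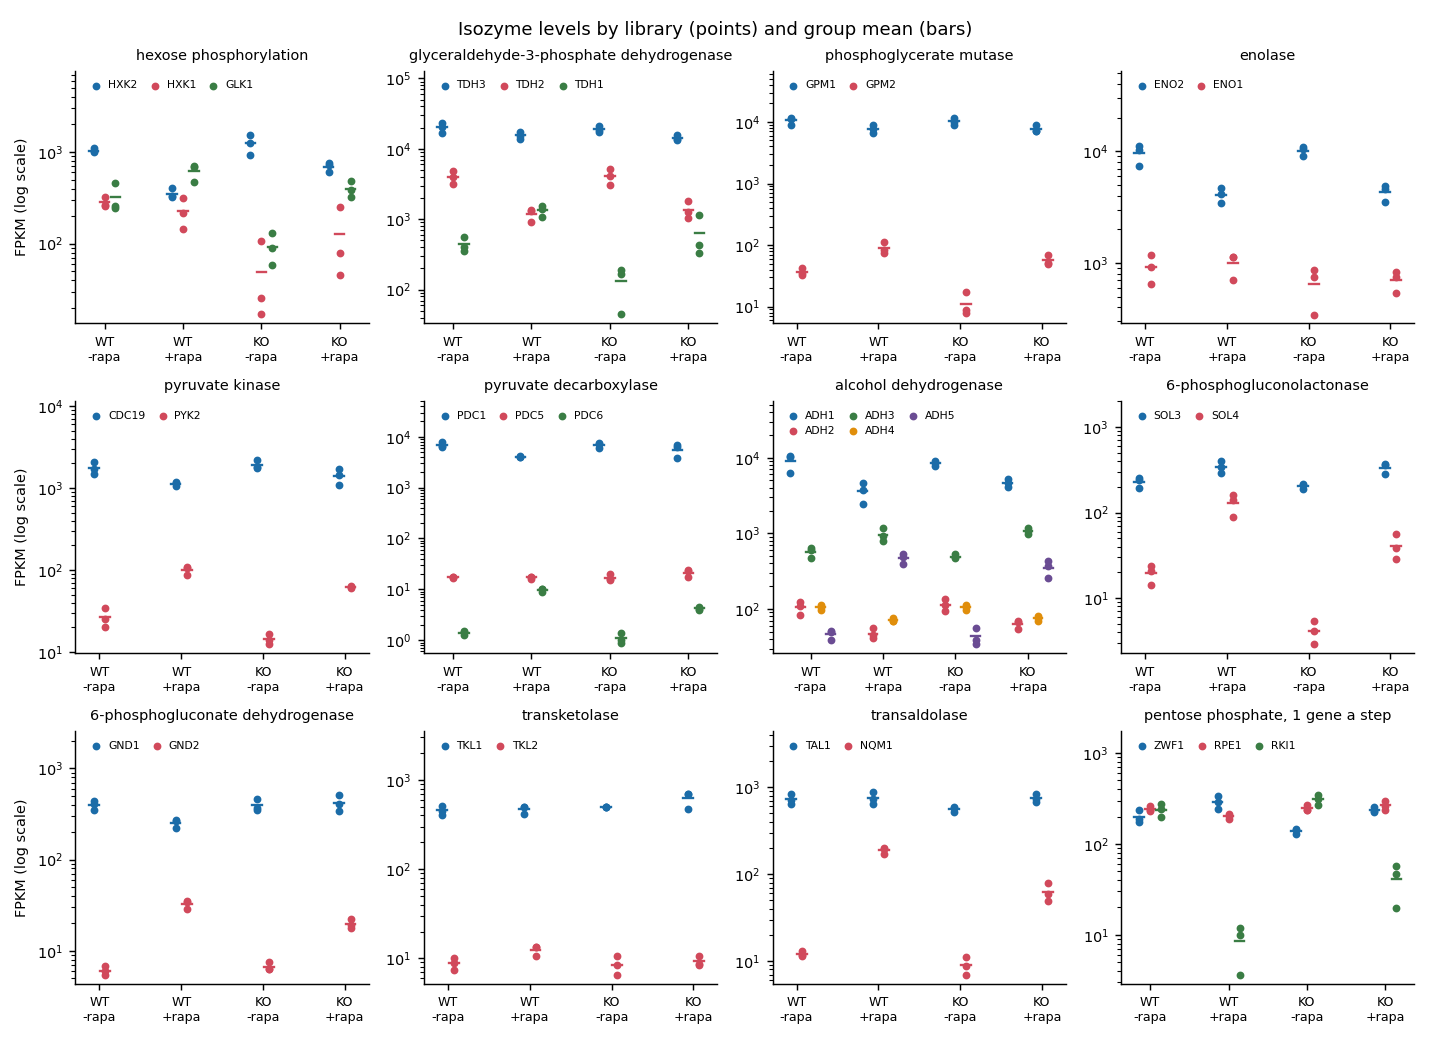
FPKM on a log axis (y axis) of the isozymes of each reaction in the 4 groups (x axis), with points for the libraries and bars for the group means. The principal isozymes stay the most abundant in most reactions, and the hexokinase panel is the exception, with *GLK1* above *HXK2* in the wild type with rapamycin.

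Hexokinase and glucokinase genes phosphorylate glucose at the entry to glycolysis, and their order changed with rapamycin in the wild type. *HXK2*, the main hexokinase on glucose, stood at 1105, 1022 and 990 FPKM in the untreated wild type, 403, 330 and 326 with rapamycin, 1545, 925 and 1255 in the untreated knockout and 753, 602 and 728 in the knockout with rapamycin. It fell 2.95-fold in the wild type (log2 fold change -1.56, SE 0.18, adjusted *p* = 1.5e-05) and 1.76-fold in the knockout (-0.81, adjusted *p* = 0.0022), and with rapamycin it was 1.96-fold higher in the knockout (0.97, SE 0.18, adjusted *p* = 0.0025). *GLK1*, the glucokinase, was at 256, 243 and 461 in the untreated wild type, 687, 476 and 696 with rapamycin, 130, 59.2 and 88.7 in the untreated knockout and 483, 325 and 382 in the treated knockout. All 3 treated libraries of each strain lay above all 3 untreated ones, and the rise was called in the knockout (2.14, SE 0.31, adjusted *p* = 0.00014) but not in the wild type (0.99, adjusted *p* = 0.015). The difference between the 2 responses was 1.14 with an adjusted *p* of 0.21. As a share of the summed FPKM of the 3 genes, *HXK2* went from 63.6% ± 6.86 (SD, n = 3) to 29.9% ± 4.31 in the wild type and *GLK1* from 19.2% ± 5.81 to 51.7% ± 4.02, and in the knockout *HXK2* went from 90.2% ± 3.02 to 57.9% ± 6.35. *GLK1* overlaps another annotated reading frame, YCL042W, by 106 nt on the same strand, and reads there cannot be told apart.

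*HXK1*, the second hexokinase, varied widely between libraries of the knockout. It was at 265, 257 and 327 FPKM in the untreated wild type and 319, 145 and 215 with rapamycin, but at 106, 25.5 and 16.9 in the untreated knockout and 253, 45.5 and 80.1 in the treated knockout. Libraries 1 and 2 of the knockout are the high values in their groups. The untreated knockout was below the untreated wild type in all libraries (log2 fold change -2.93, SE 0.68), which was not called (adjusted *p* = 0.042). Without knockout libraries 1 and 2, *HXK1* and *GLK1* were both called lower in the untreated knockout and *HXK1* also in the treated knockout. That choice was made after seeing the data, and the high *HXK1* values were among those that set these libraries apart. Leaving them out lowers the *HXK1* mean and spread of the knockout by selection, so these calls are a description only.

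The lower steps of glycolysis held the most abundant transcripts of the set, and there the principal genes and the genes without an isozyme mostly fell or did not pass the test. *FBA1* (aldolase, 5383 to 12486 FPKM over all libraries) fell in the knockout (-0.71, SE 0.19, adjusted *p* = 0.0068), and in the wild type its value was -0.60 with an adjusted *p* of 0.015. *TPI1* (triose phosphate isomerase, 2917 to 7526 FPKM) fell in the wild type (-0.73, adjusted *p* = 0.0096), a call that held in 2 of the 12 fits that leave out 1 library. *PGK1* (phosphoglycerate kinase, 1947 to 4401 FPKM) fell in both strains (-0.68 and -0.69, adjusted *p* = 0.0036 and 0.0038). Under quantile normalization none of these falls was called, and the values were -0.07 for *FBA1* in the knockout, 0.26 for *TPI1* in the wild type, and 0.38 and 0.37 for *PGK1*. *PGI1* (846 to 1505 FPKM), *PFK1* (320 to 418) and *PFK2* (253 to 431) encode the isomerase and the phosphofructokinase subunits at the top of the pathway. With FPKM as deposited they were not called in any of the 5 comparisons, and none of their log2 fold changes with rapamycin exceeded 0.42 in size. After median-ratio scaling *PFK1* and *PFK2* were called lower with rapamycin in both strains. Under quantile normalization *PFK2* was called lower in the wild type (-0.63).

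Among the glyceraldehyde-3-phosphate dehydrogenase genes, *TDH3* was the main one in every library, at 20400, 16915 and 23562 FPKM in the untreated wild type and 17279, 13921 and 15413 with rapamycin, which overlapped and was not called. In the knockout *TDH3* was at 17247, 18447 and 20995 without and 13586, 13186 and 15512 with rapamycin, which did not overlap and was not called either. *TDH2* fell in both strains, from 4032, 3148 and 4851 to 1347, 902 and 1291 in the wild type (-1.76, SE 0.27, adjusted *p* = 0.00013) and from 4124, 3021 and 5217 to 1265, 1056 and 1790 in the knockout (-1.59, adjusted *p* = 0.00037). Under quantile normalization its values were -0.77 and -0.62 and neither was called. *TDH1* went the other way, from 405, 349 and 564 to 1559, 1067 and 1401 in the wild type (1.62, SE 0.54, adjusted *p* = 0.021, not called) and from 189, 45.4 and 165 to 1146, 332 and 428 in the knockout (2.27, adjusted *p* = 0.0037, called). Treated knockout library 2 was again the highest of its group, and without it the knockout rise was 1.73 and not called (adjusted *p* = 0.015). Without knockout libraries 1 and 2 together the rise of *TDH1* was called in both strains (adjusted *p* = 0.0070 in the wild type and 0.0071 in the knockout). *TDH1* was among the genes that set these libraries apart, so the calls of that fit are a description only. The share of *TDH1* in the summed FPKM of the 3 genes rose from 1.76% ± 0.164 to 7.39% ± 0.587 in the wild type, with no overlap between the groups. *TDH3* and *TDH2* are 95.8% identical in their coding sequence with a shared run of 173 nt, longer than the 100 nt reads, and *TDH2* and *TDH1* are 90.2% identical with a shared run of 129 nt. Some reads therefore cannot be assigned to a single gene, and the split between the 3 depends on the counting.

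In the remaining lower steps *ENO2* fell, while the partners *GPM2* and *PYK2* rose. *ENO2*, the main enolase, went from 10204, 7455 and 11106 to 4681, 3456 and 4124 FPKM in the wild type (-1.22, SE 0.20, adjusted *p* = 0.00024) and from 9148, 10437 and 10868 to 3512, 4567 and 4898 in the knockout (-1.24, adjusted *p* = 0.00027). Under quantile normalization the wild-type value was -0.20 and not called, and that of the knockout was -0.52 and called. *ENO1* was at 926, 655 and 1182 against 1133, 710 and 1130 in the wild type, a difference of 0.11 within the spread, and at 757, 343 and 865 against 751, 541 and 829 in the knockout. The ENO pair is 94.8% identical with a shared run of 112 nt. *GPM2*, a paralog of the mutase gene *GPM1* with little or no mutase activity, stood at 34.9, 32.3 and 41.9 in the untreated wild type, 112, 74.1 and 83.2 with rapamycin, 17, 7.75 and 8.85 in the untreated knockout and 69.7, 51.3 and 49.2 in the treated knockout. It rose in both strains (1.27 and 2.30, SE 0.26, adjusted *p* = 0.0012 and 2e-05) and was 3.21-fold lower in the untreated knockout (-1.68, adjusted *p* = 0.0086). *GPM1* went from 11807, 8854 and 11364 to 8773, 6529 and 7794 FPKM in the wild type and from 9045, 10116 and 11679 to 7041, 7253 and 8963 in the knockout. Its treated libraries lay below the untreated ones in each strain, but neither difference was called (-0.47 and -0.41), and both were positive under quantile normalization (0.50 and 0.20). *PYK2*, the minor pyruvate kinase, rose 3.73-fold in the wild type, from 20.2, 25.6 and 34.5 to 107, 86.8 and 109, and 4.14-fold in the knockout, from 16.7, 14.1 and 12.5 to 62.8, 63.6 and 60.7 (adjusted *p* = 2.7e-06 and 2.9e-06). *CDC19*, the main pyruvate kinase, went from 1486, 1700 and 2048 to 1058, 1158 and 1182 in the wild type and from 1729, 1817 and 2220 to 1095, 1437 and 1710 in the knockout, and was not called (-0.61 and -0.46, or 0.24 and 0.30 under quantile normalization).

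Among the alcohol dehydrogenase genes of fermentation, *ADH1*, *ADH2* and *ADH4* fell in the wild type and *ADH3* and *ADH5* rose. *ADH1*, the main enzyme that makes ethanol, fell from 10087, 6339 and 10598 to 4678, 2451 and 3716 FPKM in the wild type (-1.33, SE 0.25, adjusted *p* = 0.00074), and in the knockout it went from 9058, 8478 and 7866 to 4162, 4681 and 5185 (-0.86, adjusted *p* = 0.012, not called). Under quantile normalization the wild-type value was -0.32 and not called. *ADH5* was the largest riser of the group, from 50.4, 38.8 and 51.3 to 538, 392 and 491 in the wild type (9.90-fold, SE of the log2 value 0.23, adjusted *p* = 3.2e-07) and from 56.7, 34.4 and 39 to 373, 253 and 425 in the knockout (7.92-fold, adjusted *p* = 1.5e-06). *ADH3*, the mitochondrial enzyme, went from 641, 471 and 600 to 1163, 788 and 932 (0.74, adjusted *p* = 0.0018) and from 482, 530 and 471 to 979, 1069 and 1164 in the knockout (1.11, adjusted *p* = 0.00013). After median-ratio scaling the *ADH3* rise was called in the knockout but not in the wild type. The share of *ADH5* in the summed alcohol dehydrogenase FPKM rose from 0.486% ± 0.0569 to 9.35% ± 1.09 in the wild type and from 0.468% ± 0.103 to 5.63% ± 1.32 in the knockout. *ADH2*, the enzyme that consumes ethanol, fell in both strains, from 111, 84.6 and 122 to 55.8, 40.9 and 45.4 (-1.14, adjusted *p* = 0.00019) and from 135, 112 and 94.5 to 67.6, 69.3 and 53.7 (-0.83, adjusted *p* = 0.0022), and *ADH4* fell from 96.8, 113 and 107 to 69, 75.7 and 70.1 (-0.55) and from 107, 96.6 and 111 to 70.1, 76.2 and 79.9 (-0.47). The ratio of *ADH2* to *ADH1* overlapped between treated and untreated libraries in both strains, and that of *ADH4* to *ADH1* in the wild type. *ADH1* and *ADH2* are 88.8% identical with a shared run of 189 nt, so reads in that run cannot be assigned to either gene.

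At pyruvate decarboxylase, *PDC1* carried more than 99% of the summed FPKM in every library. It was at 6554, 6436 and 8064 in the untreated wild type and 4163, 4003 and 4094 with rapamycin (-0.77, SE 0.22, adjusted *p* = 0.0083), a call that held in 2 of the 12 fits that leave out 1 library and became 0.28, uncalled, under quantile normalization. In the knockout it was at 5910, 7215 and 7665 against 3778, 6750 and 6307, which overlapped. *PDC6*, which is low in rich medium and is known to rise under sulfur limitation, went from 1.48, 1.44 and 1.29 to 8.84, 9.97 and 10.1 FPKM in the wild type and from 1.36, 1.01 and 0.865 to 4.17, 4.5 and 3.95 in the knockout. Both rises were called (2.14 and 1.33, SE 0.19, adjusted *p* = 2.3e-06 and 0.00012), and *PDC6* was 2.04-fold lower in the treated knockout than in the treated wild type (-1.03, adjusted *p* = 0.0028). *PDC5* lay between 15 and 23.8 FPKM in all libraries and was not called.

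The pentose phosphate genes held the largest changes of the set, in both directions. *RKI1*, ribose-5-phosphate isomerase, is the enzyme that makes ribose-5-phosphate from ribulose-5-phosphate. It stood at 275, 240 and 200 FPKM in the untreated wild type and 9.95, 11.7 and 3.63 with rapamycin, a 27.5-fold fall (log2 fold change -4.78, SE 0.41, adjusted *p* = 1.6e-06). In the knockout it went from 348, 313 and 271 to 56.7, 46.8 and 19.6, an 8.07-fold fall (-3.01, adjusted *p* = 7.8e-05). No treated library came near an untreated one, and the treated knockout stayed 4.44-fold above the treated wild type (2.15, SE 0.41, adjusted *p* = 0.0031), with no overlap. The difference between the falls was 1.77 with an adjusted *p* of 0.13. *RKI1* lies on chromosome XV on the minus strand (R64 positions 504328 down to 503552, 1 exon). *RPE1*, the epimerase of the same branch point, was at 238, 229 and 264 against 211, 189 and 203 in the wild type. The groups did not overlap, but the fall was not called with FPKM as deposited. It was called after median-ratio scaling and under quantile normalization (-0.52, adjusted *p* = 0.0009 by limma).

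The upstream windows of *RKI1* and of isozyme pairs that moved apart are shown for their matches to known stress and growth elements. Each window holds 200 bases and leaves out the 100 bases next to the start codon, and is read 5′ to 3′ on the gene's own strand from the R64 RefSeq genome. The stress response element AGGGG or its reverse complement CCCCT was found in 14 of 37 windows (37.8%) against 16.3% of 6001 protein-coding genes. Matches were in 6 of 17 partners, 6 of 11 principal isozymes and 2 of 9 others, and describe letters, not binding. The Gcr1 core (CTTCC or GGAAG) was in 16 of 37 windows (43.2%) against 33.4% of all. The PAC element (GATGAG or CTCATC) and the RRPE core (AAAATTTT), which are known from ribosome biogenesis genes, were searched after the data had been seen. PAC was in 5 of 37 windows (13.5%) against 13.8% of all, and RRPE in 3 of 37 (8.11%) against 7.35%. Both occur together in 3.02% of all windows and in 1 of the 37, that of *RKI1*. The capitals mark PAC and RRPE in *RKI1* and the stress response element in the others.
RKI1 chrXV:504429-504628, minus strand: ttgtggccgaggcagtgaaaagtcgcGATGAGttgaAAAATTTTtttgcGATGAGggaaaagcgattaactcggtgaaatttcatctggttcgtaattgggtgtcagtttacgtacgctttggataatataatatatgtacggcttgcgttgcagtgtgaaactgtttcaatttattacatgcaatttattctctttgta
NQM1 chrVII:581537-581736, minus strand: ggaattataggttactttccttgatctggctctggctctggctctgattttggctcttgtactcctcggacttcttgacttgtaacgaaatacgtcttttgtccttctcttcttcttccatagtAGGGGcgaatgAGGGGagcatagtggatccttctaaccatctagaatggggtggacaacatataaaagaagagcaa
TAL1 chrXII:837458-837657, minus strand: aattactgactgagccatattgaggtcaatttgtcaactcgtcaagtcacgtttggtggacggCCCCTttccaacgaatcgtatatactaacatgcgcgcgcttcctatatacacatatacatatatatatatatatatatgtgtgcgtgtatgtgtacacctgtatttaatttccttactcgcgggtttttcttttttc
GLK1 chrIII:50538-50737, plus strand: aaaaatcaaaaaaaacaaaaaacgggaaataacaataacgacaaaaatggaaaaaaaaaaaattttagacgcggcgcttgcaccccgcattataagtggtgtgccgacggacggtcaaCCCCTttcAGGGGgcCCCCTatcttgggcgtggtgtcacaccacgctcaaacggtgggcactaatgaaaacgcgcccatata
HXK2 chrVII:23635-23834, plus strand: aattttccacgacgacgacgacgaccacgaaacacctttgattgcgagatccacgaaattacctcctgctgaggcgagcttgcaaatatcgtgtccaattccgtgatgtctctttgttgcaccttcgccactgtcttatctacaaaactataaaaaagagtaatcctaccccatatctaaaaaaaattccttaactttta
SOL4 chrVII:985672-985871, plus strand: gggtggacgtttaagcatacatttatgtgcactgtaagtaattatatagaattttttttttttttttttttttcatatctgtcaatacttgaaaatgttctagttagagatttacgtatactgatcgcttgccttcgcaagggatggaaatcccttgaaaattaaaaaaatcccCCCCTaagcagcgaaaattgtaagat
SOL3 chrVIII:423424-423623, plus strand: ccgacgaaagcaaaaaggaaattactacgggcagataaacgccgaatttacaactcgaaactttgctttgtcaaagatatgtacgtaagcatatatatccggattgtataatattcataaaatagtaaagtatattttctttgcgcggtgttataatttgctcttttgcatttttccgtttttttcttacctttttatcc
The *NQM1* window holds 2 matches to the stress response element and that of its principal isozyme *TAL1* holds 1. *GLK1* has 3 and *HXK2* none, and *SOL4* has 1 and *SOL3* none. *GND2* and *GND1*, whose windows are not shown, hold 2 and 0. Several other pairs that moved apart did not have this order. *ADH5* and *PDC6* hold 0 matches while *ADH1* and *PDC1* hold 1 each, *PYK2* and *CDC19* hold 1 each, and *GPM2* and *GPM1* hold 0.

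*NQM1*, a transaldolase whose main counterpart is *TAL1*, went from 13, 11.5 and 11.6 to 200, 195 and 172 FPKM in the wild type, a 14.6-fold rise (3.86, SE 0.18, adjusted *p* = 2.9e-08). In the knockout it rose from 11.2, 8.88 and 6.99 to 79.6, 59.7 and 49.2 (2.67, adjusted *p* = 6.5e-07), and with rapamycin it was 3.03-fold lower than in the wild type (-1.60, adjusted *p* = 0.00024). Every treated knockout library was below every treated wild-type library. *TAL1* was at 835, 643 and 705 in the untreated wild type and 869, 643 and 727 with rapamycin, and at 580, 520 and 589 against 722, 684 and 843 in the knockout, and was not called in any comparison. The share of *NQM1* in the summed transaldolase FPKM went from 1.64% ± 0.109 to 20.4% ± 2.53 in the wild type and from 1.58% ± 0.370 to 7.83% ± 2.21 in the knockout.

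In the oxidative branch the partner isozymes rose in both strains. *SOL4*, the minor 6-phosphogluconolactonase, was at 20.8, 14.2 and 23.9 FPKM in the untreated wild type, 163, 89.3 and 139 with rapamycin, 5.37, 2.89 and 4.08 in the untreated knockout and 56.9, 28.4 and 38.4 in the treated knockout. It rose 6.30-fold in the wild type and 8.11-fold in the knockout (SE of the log2 values 0.30, adjusted *p* = 1.4e-05 and 8.6e-06). It was 4.04-fold lower in the untreated knockout (-2.01, adjusted *p* = 0.0079) and 3.14-fold lower in the treated knockout (-1.65, adjusted *p* = 0.0024), with no overlap. The principal isozyme *SOL3* went from 241, 196 and 251 to 396, 287 and 344 in the wild type and from 213, 217 and 188 to 282, 367 and 361 in the knockout (0.57 and 0.70, adjusted *p* = 0.0066 and 0.0023). *ZWF1*, glucose-6-phosphate dehydrogenase (127 to 335 FPKM over all libraries), also rose in both (0.55 and 0.77, adjusted *p* = 0.0057 and 0.00079). The rises of *SOL3* and *ZWF1* were not called after median-ratio scaling.

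*GND2*, the minor 6-phosphogluconate dehydrogenase, rose from 5.93, 5.46 and 6.79 to 35.4, 28.9 and 34.3 FPKM in the wild type (2.26, SE 0.14, adjusted *p* = 1.3e-07) and from 7.58, 6.24 and 6.3 to 22.1, 17.6 and 19.2 in the knockout (1.42, adjusted *p* = 6.6e-06). The main gene *GND1* fell in the wild type, from 408, 346 and 434 to 262, 221 and 269 (-0.66, adjusted *p* = 0.0046), and in the knockout it was at 372, 350 and 457 against 341, 403 and 512, which overlapped. With rapamycin *GND1* was higher in the knockout (0.72, adjusted *p* = 0.0084) and *GND2* lower (-0.71, adjusted *p* = 0.0031). Neither was called with a replicate block (limma, adjusted *p* = 0.0113 and 0.0109) or with only the libraries compared. The *GND1* call was also lost when any wild-type library was left out. *TKL1*, the main transketolase (401 to 698 FPKM), and its minor partner *TKL2* (6.58 to 13.6 FPKM over all libraries) were not called in any comparison with all libraries as deposited. Without treated knockout library 2, *TKL1* was called higher with rapamycin in the knockout (0.48, adjusted *p* = 0.0095 by limma). In the same fit it was called higher in the treated knockout than in the treated wild type (0.58, adjusted *p* = 0.0098).

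**Figure D3:**
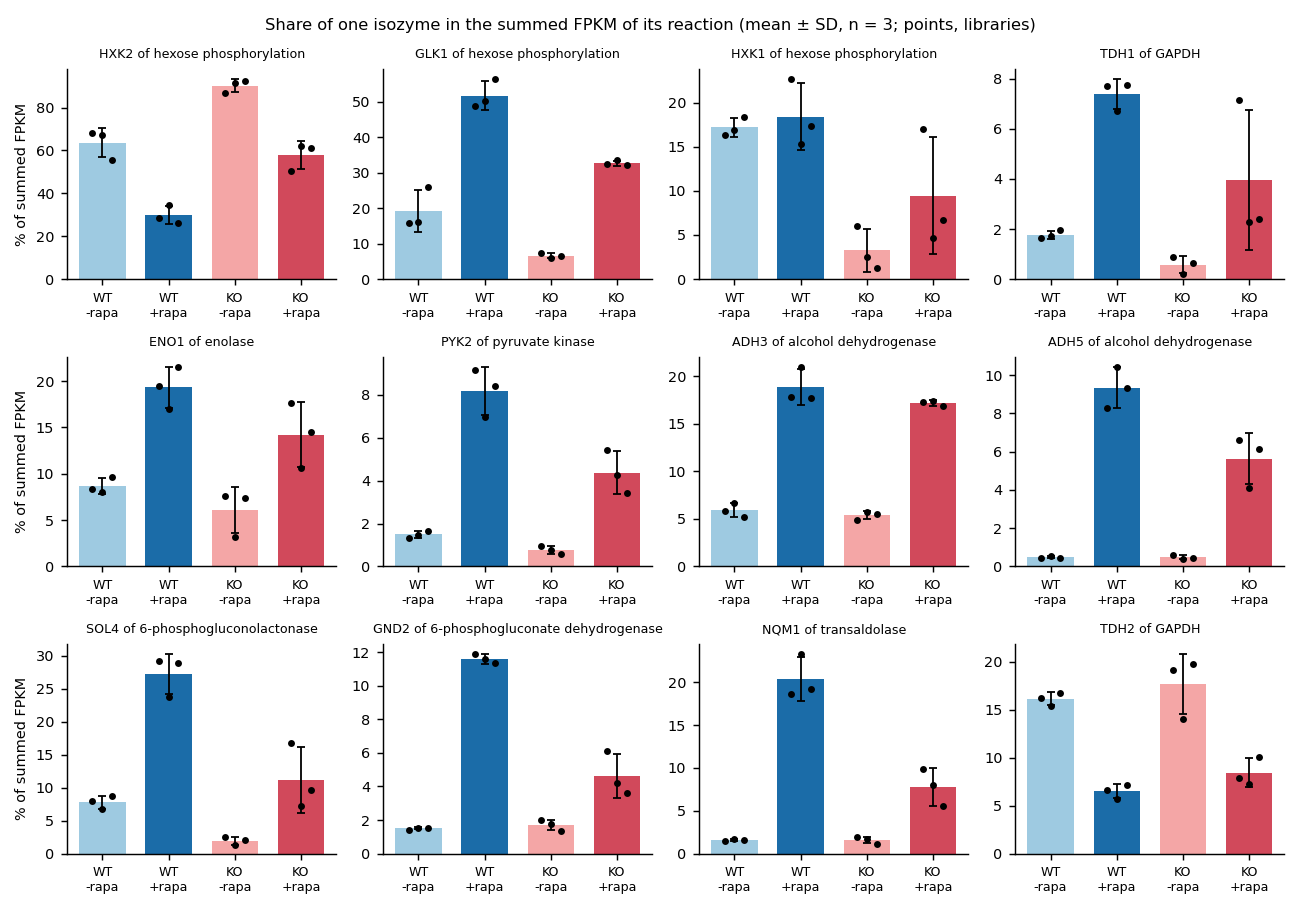
Share of a named isozyme in the summed FPKM of its reaction (y axis, percent, bars mean ± SD, n = 3, points libraries) in the 4 groups (x axis), where rapa is rapamycin and GAPDH glyceraldehyde-3-phosphate dehydrogenase. The shares of *NQM1*, *GND2* and *SOL4* rise with rapamycin in both strains and stay lower in the treated knockout than in the treated wild type, as for *NQM1* at 7.83% against 20.4%.

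The knockout was compared with the wild type within each condition. Without rapamycin, 2 of the 37 genes were called, *GPM2* and *SOL4*, both lower in the knockout, where 0.585% of all features were called (0.0308% higher and 0.554% lower). Neither call held when any 1 of the untreated wild-type libraries was left out. With rapamycin, 7 were called, against 14.1% of all features (8.28% higher and 5.79% lower). *HXK2*, *GND1* and *RKI1* were higher in the knockout and *SOL4*, *PDC6*, *GND2* and *NQM1* were lower. The 4 lower genes are all partner isozymes, and none of the 17 partners was called higher in the knockout in either condition (median -0.22 without and -0.64 with rapamycin, against -0.08 and -0.02 over all features). The principal isozymes had medians of -0.02 and 0.30. Leaving out 1 library at a time gave 2 to 7 calls, with 2 when wild-type library 6 or knockout library 4 was left out. With the same sum per library the split with rapamycin became 5 higher and 2 lower, against 3 and 4 as deposited.

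**Figure D4:**
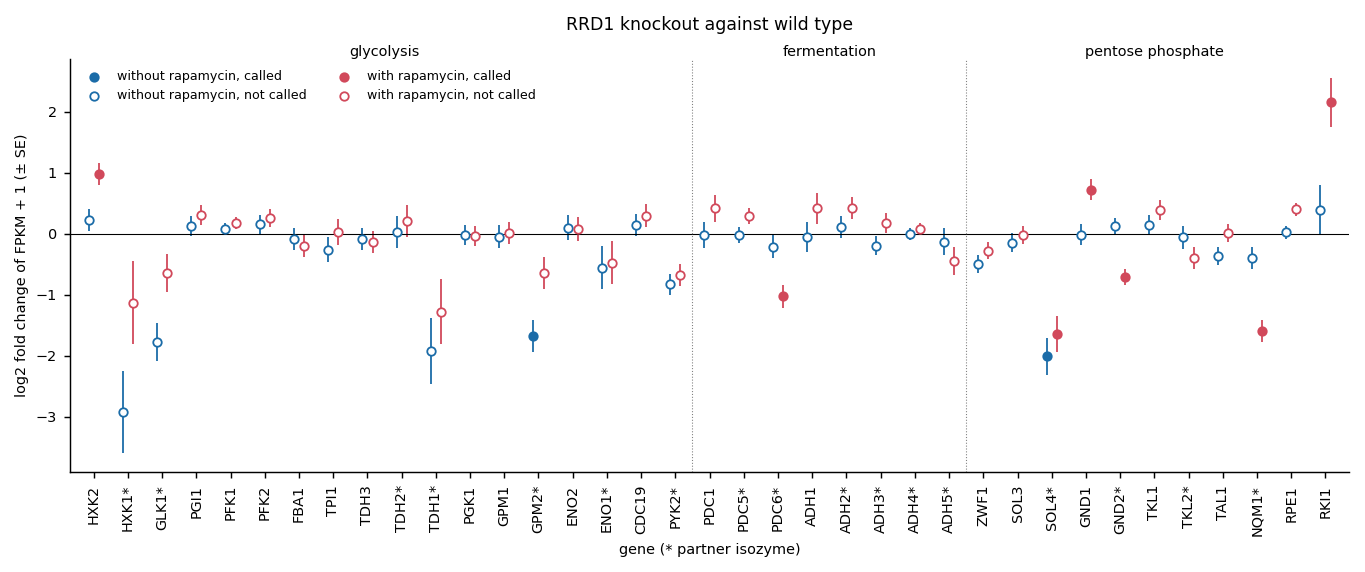
Log2 fold change of FPKM + 1 (y axis, ± SE from limma, n = 3 per group) of the knockout against the wild type for the 37 genes (x axis, * partner isozyme), without and with rapamycin, with filled symbols for genes called. *GPM2* and *SOL4* are the called genes without rapamycin, and *RKI1* at 2.15 and *NQM1* at -1.60 are among the 7 called with it.

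The ratio of partner to principal isozyme was lower in the knockout, without overlap, for 7 of 17 pairs in untreated cells and for 10 of 17 in treated cells, and was higher for 0 pairs in both. Among all features, the FPKM of single genes did not overlap between the strains for 25.4% and 41.0%, in either direction, which is not a share of ratios. The pairs lower in both conditions were *HXK1* and *GLK1* to *HXK2*, *GPM2* to *GPM1*, *PYK2* to *CDC19* and *SOL4* to *SOL3*. The comparisons of the strains and of the treatments share libraries, so these counts are not independent of those above.

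By limma, 0 genes of the set were called for a difference between the responses of the 2 strains to rapamycin, where 0.262% of all features were called, and 9 of the 37 had an unadjusted *p* under 0.05 against 16.8% of all features. The nearest were *NQM1* (-1.20, adjusted *p* = 0.040) and *GND2* (-0.84, adjusted *p* = 0.048), whose rises were smaller in the knockout. The other 7 were *HXK2*, *GLK1*, *GPM2*, *PDC6*, *GND1*, *RPE1* and *RKI1*. With quantile normalization *NQM1* passed the threshold.

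Without knockout libraries 1 and 2, the calls were 21 in the wild-type response, 16 in the knockout response (13 higher and 3 lower), 4 without rapamycin and 7 with rapamycin. Over all features the same fit made 3344, 2424, 61 and 747 calls, in this order. In that fit the falls of *HXK2*, *FBA1*, *PGK1*, *ADH2* and *ADH4* in the knockout were not called, and *RKI1* was no longer called between the treated strains. Their log2 fold changes kept their sign, at -0.70, -0.62, -0.75, -0.74 and -0.41 in the knockout and 1.86 for *RKI1*. The fit has fewer knockout libraries, so a lost call there does not show that libraries 1 and 2 produced the change.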

How the data were processed

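The authors prepared TruSeq libraries from total RNA, sequenced single reads of 100 nt, aligned them with TopHat and quantified genes with Cufflinks, and deposited FPKM per library. Software versions, the genome build and annotation, and any scaling between libraries are not given in the sources used here. Cuffdiff, the authors' test, needs aligned reads and was not run. The FPKM sum to different totals per library (1848000 to 2584000). From 1-read steps in low values, each library implied 8440000 to 11760000 mapped reads, where 63.9% to 77.8% of the values used lay within 0.05 of a whole read, under assumed fragments of 200 ± 80 nt and a search limited to 7000000 to 13000000 reads. This depth and 3 libraries per group limit the precision.

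log2(FPKM + 1) was fitted with limma 3.58.1 in R 4.3.3 (4 group means, 8 residual degrees of freedom, trended empirical Bayes) for 6497 features, and adjusted *p*-values are Benjamini-Hochberg over these. The fit was tested on simulated data. Tables were handled with Python 3.11.15. Genes, gene lists and the isozyme classes were chosen with earlier results of these data known. Values per library are given for genes called with a log2 fold change of at least 1 in size and their isozymes, and other genes by range. Alternatives were the pseudocount, filter, scaling, trend, thresholds, libraries fitted, replicate block and leaving out each library. Columns were matched to samples by title, and 0 were left unmapped. Coordinates and upstream sequence are from R64 RefSeq, matched by locus tag.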

Additional observations from a re-analysis of the deposited data

How the results depend on the processing

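Of the 21 and 20 genes called for rapamycin in the wild type and the knockout, 10 and 11 were called in every alternative, and 18 and 19 kept their sign. Of the 2 and 7 calls between the strains without and with rapamycin, 0 and 1 (*NQM1*) were called in every alternative, and all kept their sign. Requiring at least a 2-fold change left 13 calls in each rapamycin response and 4 between the treated strains. Between the untreated strains the count was 0 with a pseudocount of 5, with no filter, with the same sum per library, with quantile normalization, without a trend and with only the libraries compared, 5 at an adjusted *p* under 0.05, and 4 without knockout libraries 1 and 2. Between the treated strains it was 3 with only the libraries compared. For the difference between responses it was 1 with quantile normalization and 2 at an adjusted *p* under 0.05. Leaving out each library in turn gave 17 to 22, 16 to 21, 0 to 3, 2 to 7 and 0 calls in the order above. Between the treated strains, 2 calls were made when wild-type library 6 or knockout library 4 was dropped, and 4 when library 2 or 4 of the wild type, or library 6 of the knockout, was. Among called genes, quantile normalization turned *TPI1* (0.26), *PGK1* (0.38) and *PDC1* (0.28) positive in the wild type and *PGK1* (0.37) in the knockout, and ended the calls of *ENO2* and *ADH1* in the wild type, *FBA1* and *TDH1* in the knockout, and *TDH2*, *SOL3* and *ZWF1* in both. Uncalled abundant genes also turned positive, among them *FBA1* (0.37) and *GPM1* (0.50) in the wild type and *TPI1* (0.49) and *PDC1* (0.38) in the knockout. The cause was not tested. Same-numbered libraries of the 2 strains did not deviate together (r of -0.048, 0.044 and 0.127 without rapamycin and -0.168, -0.089 and 0.026 with it, across genes), so the numbers were not taken to pair them. With a replicate block the counts were 1, 4 and 1 for the 2 strain comparisons and the difference, the last being *RKI1* (1.77, adjusted *p* = 0.0098 by limma). No paired analysis was possible for rapamycin within a strain because treated and untreated libraries share no number, and the labels do not say that consecutive numbers share a day. The number of libraries and the depth limit the low genes, such as *PDC6*.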

Other observations

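Genes next to the 3 pathways were counted by lists chosen with earlier results known. Among 8 genes for pyruvate entry into mitochondria, 7 rose with rapamycin in the wild type and 6 in the knockout, and 0 fell, where 35.9% and 36.4% of all features were called higher. The mitochondrial pyruvate carrier subunit gene *MPC2* (listed as YHR162W) rose by a log2 fold change of 1.64 in the wild type (limma, adjusted *p* = 4.5e-05) and 1.19 in the knockout (adjusted *p* = 0.0006), and *MPC3* (listed as FMP43) by 2.09 in the wild type (adjusted *p* = 0.0046). In the branch from acetaldehyde to acetyl-CoA, 3 of 7 genes rose and 1 fell in each strain, which is close to those shares of all features. The aldehyde dehydrogenase gene *ALD2* went from 23.9, 27.9 and 29.9 to 240, 225 and 225 FPKM in the wild type (3.03, adjusted *p* = 1e-08) and from 19.3, 20.4 and 19.1 to 107, 145 and 139 in the knockout (2.66), and with rapamycin it was lower in the knockout (-0.82, adjusted *p* = 0.00084). *ALD3* and the acetyl-CoA synthetase gene *ACS1* rose in both strains (1.23 and 1.05, 1.06 and 1.09), and the cytosolic *ALD6* fell (-1.50 and -2.14).

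The list of 3 genes for enzymes that make or break down fructose-2,6-bisphosphate, an activator of glycolysis, had 2 rises in each strain. These were *PFK26* (1.51 and 1.90) and *FBP26* (1.99 and 2.10), and the level of the activator was not measured. In the glycerol branch *GPP2*, listed as HOR2, rose (1.34 and 2.34). Of the 7 genes of that branch, 1 was called higher and 0 lower in the wild type, and 1 and 1 in the knockout. Over all features, 52.2% and 46.7% were called. Among 9 regulators, 2 were called higher and 3 lower in the wild type, and 2 and 2 in the knockout. *MSN4* rose in both strains (limma, adjusted *p* = 2.7e-05 and 5.4e-05) and *RAP1* fell (-1.13 in the wild type). Further paralogs included *ERR1* and *ERR2*, enolase-related genes with identical values in every library (1.81 and 1.10). None of these 6 lists had a call in the untreated knockout or for the difference between responses by limma.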
